A study of Rattus norvegicus with 2 samples.

Results

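Cyclic nucleotide phosphodiesterases were examined in rat esophagus after treatment with the histone deacetylase (HDAC) inhibitor OSU-HDAC42 or with vehicle. The family is represented here by 8 genes, Pde4a, Pde4b, Pde4c, Pde4d, Pde3a, Pde3b, Pde5a and Pde7a. They were found as the probe sets that the platform annotation gives to exactly 1 gene with one of these symbols, which yielded 11 of the 31042 non-control probe sets and 8 of the 14217 measured genes. The genes were picked with the values of these arrays already known, so the differences between the arrays are given as a description and no test was made of them.

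Total RNA of esophagus was hybridised to Affymetrix 230 2.0 rat arrays, 1 array for each of the 2 groups. All animals were male Sprague-Dawley rats, an outbred laboratory stock, bought at 5 to 6 weeks of age. The OSU-HDAC42 group received 7 gavages of 50 mg/kg body weight, 350 mg/kg in total, the vehicle group received vehicle on the same schedule, and the esophagus was collected on day 15, 24 hours past the final gavage. The labels do not say how many rats contributed to an array, at what hour of the day tissue was taken or which layers of the esophagus were included. With 1 array per group there is no replicate check, no standard error and no p-value for any difference below. Probe sets differ in how brightly they report a transcript, so each value was compared only with the same probe set on the other array.

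Phosphodiesterases end the signal of the second messengers cAMP and cGMP by hydrolysing them. The PDE4 enzymes, relatives of the fly learning gene dunce and the targets of rolipram and roflumilast, are specific for cAMP, and their 4 genes give many long and short isoforms from alternative promoters. Enzymes of the PDE3 family hydrolyse cAMP and are held back by cGMP, PDE5 is specific for cGMP and limits nitric oxide signalling in smooth muscle, and PDE7 is specific for cAMP. The esophageal wall holds squamous epithelium, muscle, vessels and connective tissue, and each of these uses cyclic nucleotide signalling. In such bulk RNA, fewer cells of a type and less RNA per cell cannot be told apart.

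The cAMP response element, the palindrome TGACGTCA and its shorter core TGACG, is bound by CREB family factors, and it is a known route by which cAMP feeds back on phosphodiesterase genes and on Crem. RefSeq promoter windows of the GRCr8 rat assembly, reaching from 250 bases before to 50 bases after each start, were read for Pde4a, Pde4b, Pde4d, Pde3a and Pde5a. The windows of these genes numbered 13, and 4 of them held TGACG on either strand, in 2 of the 5 genes, Pde4a and Pde4d. None of the 13 held TGACGTCA. Over all 33469 windows of the same length 21.2% held TGACG and 1.83% held TGACGTCA. All 5 sites of Pde4a and Pde4d are shown, while Pde4b, which also stood near equal on both arrays, held none. Crem was picked because that cAMP-responsive gene was lower after OSU-HDAC42. It belongs to a list of 17 CREB family and cAMP-induced genes, of which 13 had windows and 10 held TGACG. Over all genes with windows that share was 23%. Dusp1 and Ppargc1a of that list held 1 full palindrome each and are not printed. Of 5 Crem sites, the 3 that hold the full palindrome are printed, and the other 2 hold TGACG alone. Each is written 5′ to 3′ along the gene, with TGACG or its reverse complement CGTCA in capitals. In the 3 Crem sites the capitals mark TGACGTCA.
Pde4a, chr8:27966963-27966992, plus strand: cagcgtcggcgcaTGACGttcgtccttagc
Pde4a, chr8:27999382-27999411, plus strand: tggcacagctcgaCGTCAggctggggaggg
Pde4d, chr2:42592505-42592534, plus strand: tgtctcccgagctCGTCAagtgatctttgg
Pde4d, chr2:42592542-42592571, plus strand: tgggggaggagggTGACGttgaacaggctt
Pde4d, chr2:42767585-42767614, plus strand: aggaaaatattaaTGACGgaagagctgcaa
Crem, chr17:58984728-58984757, plus strand: agtgataggctggTGACGTCActgtgatgt
Crem, chr17:58985442-58985471, plus strand: gagttcaaagggcTGACGTCAttacatttc
Crem, chr17:58985510-58985539, plus strand: ctccaagtgagctgcacatTGACGTCAgct
These letters describe the windows and say nothing of binding in these tissues. Pde4c, Pde3b and Pde7a had no window in the set used, so their promoters could not be read. The same holds for Nr4a3 and Gem, cAMP-induced genes described below.

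Of the PDE4 paralogs, Pde4c alone was far apart between the arrays, while the representative probe sets of Pde4a, Pde4b and Pde4d differed by at most 1.11-fold. The intensity of Pde4c was 124 after vehicle and 610 after OSU-HDAC42. That is 4.93-fold higher in the treated sample, a difference of 2.30 on the log2 scale. The vehicle value was thus 20.3% of the other.

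Pde4a read 55.3 after OSU-HDAC42 and 49.8 after vehicle, a log2 difference of 0.15. Both values lie just above the expression floor, an intensity of 49.1, which is the middle value over all non-control probe sets after averaging the arrays on the log2 scale. Pde4b, the PDE4 gene known for its role in inflammatory cells, read 454 after OSU-HDAC42 and 483 after vehicle on its brightest probe set, a log2 difference of -0.089. Pde4d, whose product is known from the cAMP control of heart muscle, read 90.7 against 97.2 on its brightest probe set, a log2 difference of -0.099. The difference of Pde4c exceeded that of Pde4a by 2.15, that of Pde4b by 2.39 and that of Pde4d by 2.40 on the log2 scale.

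**Figure D1:**
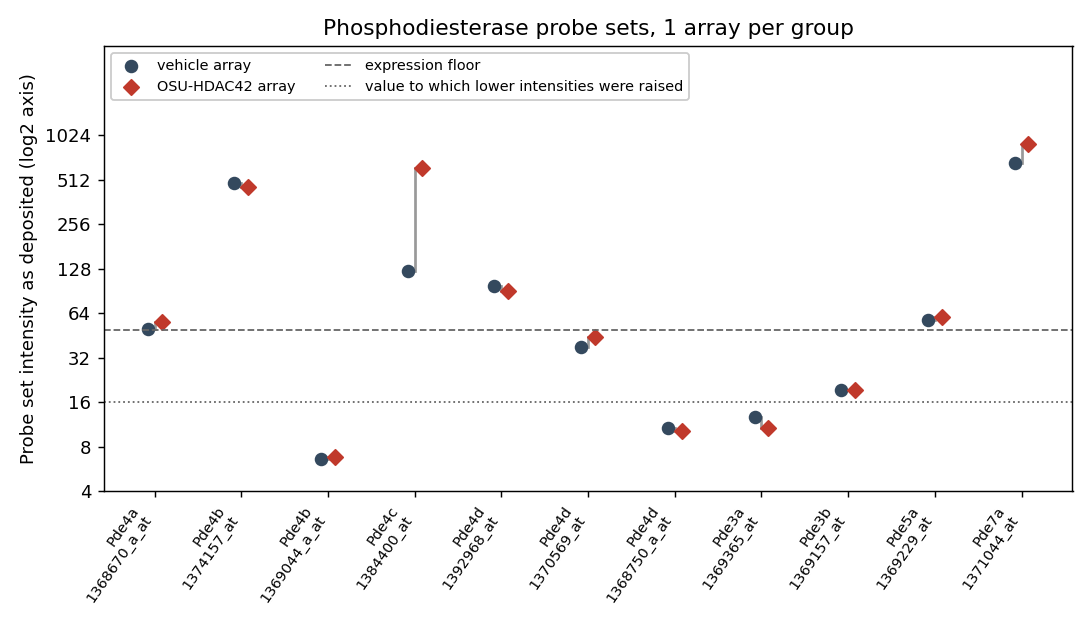
Deposited intensity of each of the 11 phosphodiesterase probe sets (log2 axis), with circles for the vehicle array and diamonds for the OSU-HDAC42 array, each group being 1 array. Pde4c is the one probe set with widely separated points, 124 and 610, while Pde7a has the next largest gap among those above the dashed floor of 49.1 and 3 probe sets lie under the dotted line at 16 on both arrays.

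The probe sets of Pde4b and Pde4d showed how far a reading depends on the probe set. The brightest probe set of Pde4b is the one given above, whereas its other probe set read 6.82 and 6.57 after OSU-HDAC42 and vehicle, under the value of 16 to which all lower intensities were raised before log2 was taken. Of the 3 Pde4d probe sets, the next in brightness read 44.1 after OSU-HDAC42 and 37.5 after vehicle, a log2 difference of 0.23 and opposite in sign to that of the brightest. The dimmest read 10.2 and 10.7, under 16 as well. The annotation does not tell which isoforms these probe sets report. Taken as the mean of all its probe sets, Pde4d differed by 0.045 in place of -0.099. Pde4a and Pde4c have 1 probe set each, so the difference of Pde4c has no second probe set beside it.

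The difference of Pde4c is set beside those of all genes as a description. The floor was reached by 9560 genes on at least 1 array, of which 180 (1.88%) passed 2-fold upward and 303 (3.17%) passed it downward after OSU-HDAC42. Of the phosphodiesterase members, 6 of 8 reached the floor, 1 of the 6 passed 2-fold upward and 0 passed it downward. Since the members were chosen from this contrast, nothing is read from that share. The same choice bears on the rank of Pde4c and on its place among genes of like brightness, so these are no support. Pde4c ranked 7 from the top of the 9560 genes by signed difference and 12 by size, and it was above the floor on both arrays. Of the 1782 genes whose mean log2 intensity lay within 0.5 of that of Pde4c, 42 (2.36%) passed 2-fold upward and 0 had a higher difference than Pde4c. The SD of the differences of these 1782 genes was 0.51. Between probe sets of 1 gene, both above the floor, the gap in difference had an SD of 0.41 (3643 pairs), which covers probe noise and not the spread between rats.

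**Figure D2:**
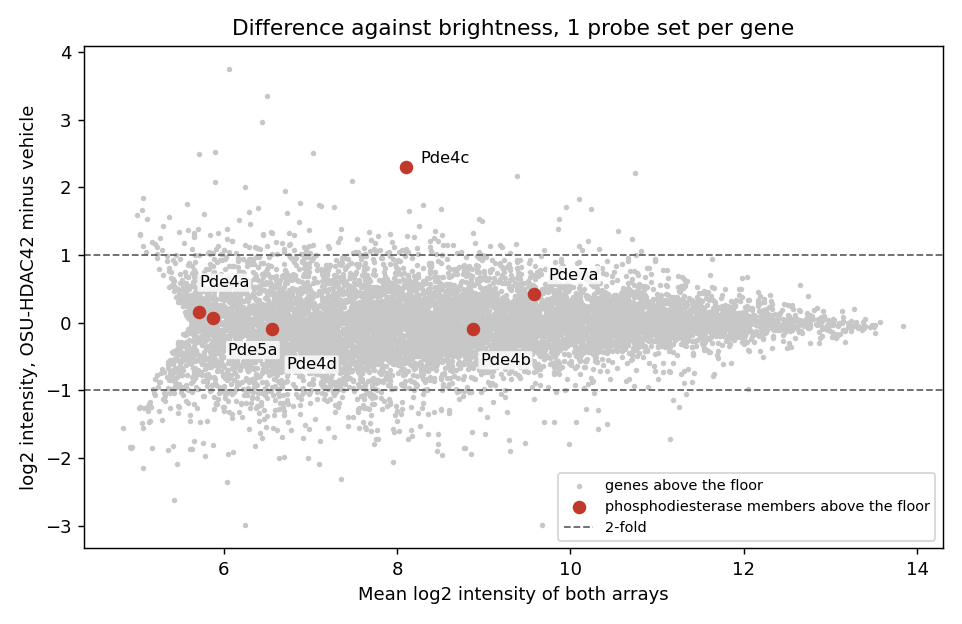
Log2 difference, OSU-HDAC42 minus vehicle, against the mean log2 intensity of both arrays for the 9560 genes above the floor (grey, 1 probe set per gene) and the 6 phosphodiesterases among them (red). Pde4c stands at 2.30, beyond the dashed 2-fold line, and the other 5 lie between -0.099 and 0.42.

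Outside PDE4, the largest difference was that of Pde7a, a cAMP-specific enzyme known from skeletal muscle and T cells. It read 887 after OSU-HDAC42 and 662 after vehicle, 1.34-fold higher and a log2 difference of 0.42. Of the 1466 genes of like brightness, 22.2% differed by at least as much, and the SD of their differences was 0.39. The SD of 0.41 above is that of a gap between the differences of a pair of probe sets, so it is not the error of a single difference. Pde5a, the cGMP-specific enzyme that is the target of sildenafil, read 60.0 against 57.5, a log2 difference of 0.062.

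The PDE3 genes could not be followed. Pde3a, the form known from heart, platelets and smooth muscle, read 10.7 after OSU-HDAC42 and 12.7 after vehicle, both under 16. Pde3b, the form that insulin activates in fat cells, read 19.4 on both arrays, below the floor. Neither value says whether these genes differed.

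Apart from Pde4c, the members above the floor were thus close on both arrays, 3 of the 5 slightly higher and 2 slightly lower after OSU-HDAC42. The median log2 difference over all 8 members was 0.031, against 0 over all 14217 genes and -0.027 over the genes above the floor.

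The other genes of the pathway came from 7 lists with 114 genes, of which 104 were measured and 52 reached the floor. In this set 3 genes (5.77%) passed 2-fold upward and 1 (1.92%) downward, against 1.88% and 3.17% of all genes above the floor. These 4 genes, Akap12, Nr4a3, Gem and Pde4dip, were above the floor on both arrays. The lists were chosen with earlier results of these data known, so nothing is read from the shares above. A gene under 16 on both arrays enters a list's median as a difference of 0, and the lists held from 1 to 7 such genes.

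Among the other phosphodiesterases, 14 of 16 were measured and 3 reached the floor, with 0 past 2-fold in either direction. Their median log2 difference was 0.018. Pde8a, a cAMP-specific enzyme with high affinity, read 416 after OSU-HDAC42 and 378 after vehicle, and a second probe set of it went the other way, with differences of 0.14 and -0.17. Pde10a, which hydrolyses both messengers and is known from the striatum, read 71.0 against 55.5, a log2 difference of 0.36. Pde6d, a chaperone of prenylated proteins named after the photoreceptor enzyme, read 110 against 97.6. For 7 of the 14, Pde1a, Pde1c, Pde6b, Pde6g, Pde6h, Pde7b and Pde8b, both arrays were under 16. Of all 22 measured phosphodiesterases and subunits, 9 reached the floor, and Pde4c was the 1 past 2-fold among those 9.

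The enzymes that make the messengers were measured as well. Of the adenylyl cyclases, which produce cAMP, 8 of 10 were measured and 4 reached the floor, and all 4 read lower after OSU-HDAC42, none by 2-fold. Adcy4 differed by -0.57, Adcy9 by -0.40, Adcy3 by -0.14 and Adcy6 by -0.058, with a list median of -0.10. Adcy4 was above the floor on the vehicle array only, at 61.3 against 41.3 after OSU-HDAC42. Of the guanylyl cyclases and natriuretic peptide receptors, 2 of 12 measured genes reached the floor. These are the subunits of the nitric oxide receptor, and they went opposite ways, Gucy1a1 from 993 on the vehicle array to 631 on the OSU-HDAC42 array (-0.65) and Gucy1b1 from 54.8 to 72.5 (0.40). The mean of the Gucy1a1 probe sets was -0.33, and the list median was 0.

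Of 22 measured effectors, the proteins that read the messengers, 12 reached the floor, 6 higher and 6 lower, with 0 past 2-fold in either direction and a list median of 0. The catalytic subunits of protein kinase A were both higher, Prkacb by 0.54 and Prkaca by 0.41 on the log2 scale, and a second probe set of Prkacb differed by 0.41. The inhibitor of that kinase, Pkia, differed by -0.41, with -0.21 as the mean of its probe sets. Popdc3, a cAMP-binding membrane protein known from striated muscle, read 51.8 after OSU-HDAC42 and 98.1 after vehicle (-0.92). Rapgef4, the cAMP-driven exchange factor EPAC2, read 60.6 against 99.7 (-0.72).

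**Figure D3:**
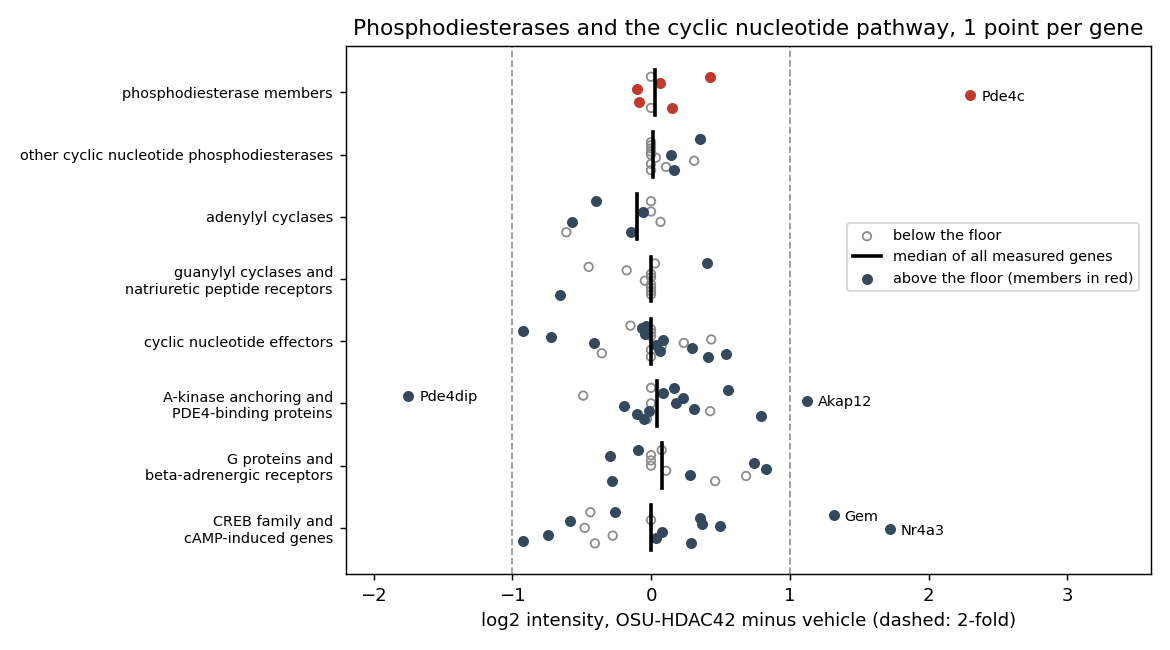
Log2 difference, OSU-HDAC42 minus vehicle, of each measured gene of the phosphodiesterase members (red) and of 7 pathway lists (dark points above the floor, open points below it, bars at the median of all measured genes). Pde4c at 2.30, Nr4a3, Gem and Akap12 lie beyond the upper 2-fold line and Pde4dip beyond the lower, while list medians lie between -0.10 and 0.077.

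Of 18 measured genes for proteins that hold phosphodiesterases and protein kinase A in place, 13 reached the floor, with a list median of 0.043. Among the 13, 1 passed 2-fold in each direction, against 1.88% upward and 3.17% downward of all genes above the floor. Pde4dip, known as myomegalin, a large scaffold found through its binding to PDE4D, read 75.3 after OSU-HDAC42 and 253 after vehicle, 3.36-fold lower (-1.75). Its other probe set was below the floor, at 21.1 and 21.5, and the mean of both was -0.89. Akap12, an anchoring protein known as gravin, read 1614 against 740, 2.18-fold higher (1.13), while its other probe set was under 16 on both arrays and the mean was 0.56. The gene Pakap, matched through its older symbol Akap2, differed by 0.80, with 0.25 as the mean of its 4 probe sets. Arrb2, the beta-arrestin that brings PDE4 enzymes to activated receptors, differed by 0.56. The probe sets of Akap9 went opposite ways, 0.31 and -0.68.

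Among G proteins and receptors, 6 of 13 measured genes reached the floor, 3 higher and 3 lower, with 0 past 2-fold and a median of 0.077. Gnaz, an inhibitory alpha subunit, read 91.3 after OSU-HDAC42 and 51.3 after vehicle (0.83), with 0.58 as the mean of its probe sets. Adrb3, a beta-adrenergic receptor, read 70.9 against 42.3 (0.74) and was above the floor on the OSU-HDAC42 array only. The stimulatory subunit Gnas differed by -0.28, the inhibitory subunit Gnai2 by 0.28 and the receptor Adra2a by -0.30.

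Of the CREB family and the genes that cAMP is known to induce, 12 of 17 measured genes reached the floor, 8 higher and 4 lower, 2 of them past 2-fold upward and 0 downward. Over all genes above the floor, 1.88% passed 2-fold upward and 3.17% downward. The list was chosen with earlier results of these data known, and its median over all 17 genes was 0. Nr4a3, an orphan nuclear receptor, read 252 after OSU-HDAC42 and 76.5 after vehicle, 3.30-fold higher (1.72). Its next probe set in brightness read 82.9 against 30.8 (1.43), above the floor on the OSU-HDAC42 array only. The dimmest was under 16 on both arrays, and the mean of all 3 was 1.05. Gem, a small GTPase, read 138 against 55.3, 2.49-fold higher (1.32).

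Crem, whose short product ICER is a repressor induced by cAMP and for which 3 sites are printed above, read 102 after OSU-HDAC42 and 193 after vehicle (-0.93). It has 6 probe sets, and the other that reached the floor differed by -0.24, with a mean over all 6 of -0.43. The clock gene Per1 differed by -0.59 and the CREB coactivator Crtc1 by -0.74. Crtc1 read 29.9 after OSU-HDAC42, below the floor, and 50.1 after vehicle, just above it. The mean of its probe sets was -0.37.

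**Figure D4:**
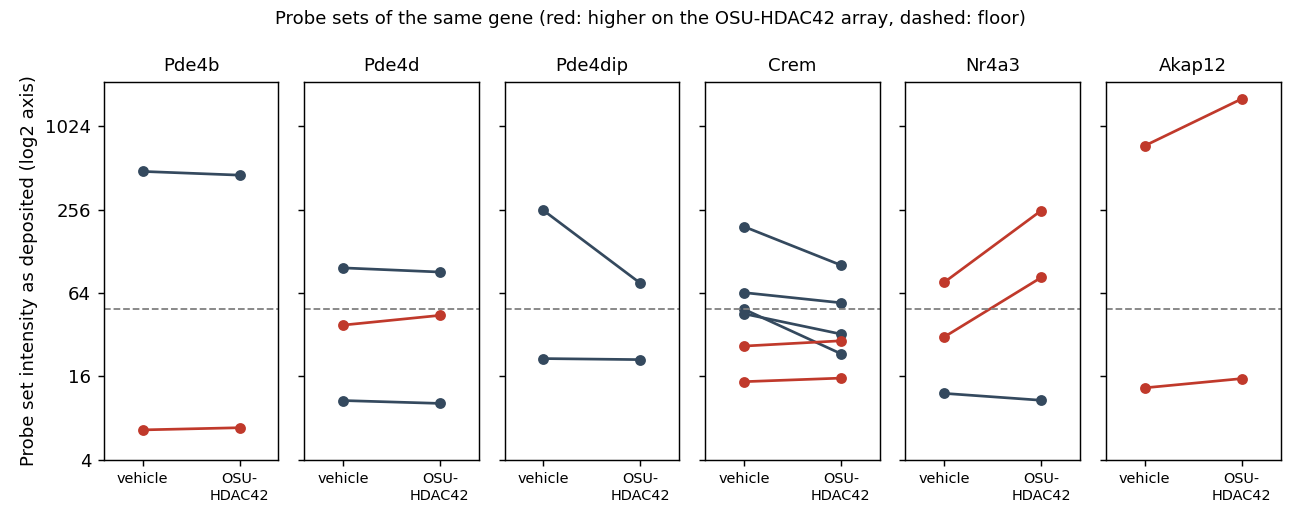
Deposited intensity on the vehicle and OSU-HDAC42 arrays (log2 axis) of every probe set of 6 genes with several probe sets, red where higher on the OSU-HDAC42 array, with the floor dashed. The brighter pair of Nr4a3 probe sets go the same way, though the dimmer of that pair is under the floor on the vehicle array. Pde4dip and Akap12 each rest on 1 probe set above the floor.

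Marker genes of several cell types also differed between the arrays. The squamous keratins Krt4 and Krt13 were bright on both, at 11052 and 14438 on the OSU-HDAC42 array, and the 5 measured squamous markers had a median difference of -0.050. Of 12 skeletal muscle markers all were lower after OSU-HDAC42, 11 by at least 2-fold, against 3.17% of all genes above the floor. Their median was -1.52, with summed intensities of 7518 against 18836. Of 8 smooth muscle markers all were higher, with a median of 0.61 and sums of 11254 against 7236, and all 7 fibroblast markers were higher, with a median of 0.50 and sums of 20660 against 16410. Endothelial markers had a median of -0.24 (6 measured, sums 2668 and 2444) and leukocyte markers 0.050 (6 measured, sums 1828 and 2473), and in both lists the median and the sums went opposite ways. The 6 measured markers of neurons and glia were all below the floor on both arrays, with sums of 94.0 and 98.3. Of 5 adipocyte markers 4 were under 16 on both arrays, with sums over the list of 101 and 136. The part of these cell types in the differences of Pde4c, Pde4dip, Popdc3, Akap12 or any other gene above was not tested.

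With 2 arrays, likeness between genes reduces to the size of the difference. Among named genes above the floor the 4 nearest to Pde4c were Sprr1b at 2.21, Serpina12 at 2.16, Ypel4 at 2.50 and Wasf1 at 2.51, with gaps of 0.096 to 0.21 on the log2 scale. Ypel4 read 22.1 on the vehicle array and differed by 1.96 when all intensities under 32 were raised to 32.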

How the data were processed

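The authors deposited 1 table of probe set intensities on a linear scale for both arrays, a unit read from the values. The tools listed per the submitters' processing notes are GCOS and RMA, without their roles or versions, and how the arrays were scaled to each other is not given in the sources used here. The design had set this course for linear values: intensities under 16 were raised to 16 (28.4% of values after OSU-HDAC42, 29.2% after vehicle) and log2 was taken, with no further normalization. Of 31099 probe sets 57 controls were left out. Of the others 20826 have 1 gene symbol in the platform annotation, 436 several and 9780 none, and only the first were used. A gene was represented by its probe set with the highest mean log2 intensity. The number of arrays limits the precision. Members and lists were chosen with earlier results of these data known. Named were all members, up to 5 genes per pathway list with the largest differences above the floor, up to 3 per marker list by brightness, and the 4 genes nearest to Pde4c. Of the 114 pathway genes, 1 was matched through an older symbol, and so was 1 marker. Promoters came from RefSeq. Python 3.11.15, numpy 2.4.6 and pandas 2.3.3 were used, tested on simulated data. Alternatives changed the raised value, the scaling, the probe set choice, the floor and the fold threshold.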

Additional observations from a re-analysis of the deposited data

How the results depend on the processing

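Over the 6 alternatives of raised value, scaling and probe set choice, Pde4c differed by 2.30 to 2.32 and Pde7a by 0.40 to 0.44, and all 48 member values moved by less than the SD of 0.41 between probe sets of 1 gene. Pde4d ran from -0.099 to 0.045. With no values raised, Pde3a differed by -0.26, the G protein and receptor list had a median of 0.29 and the CREB list -0.16. Counting only members above the floor, medians were 0.17 for the other phosphodiesterases, -0.27 for adenylyl cyclases, -0.12 for guanylyl cyclases, 0.16 for anchoring proteins and 0.19 for the CREB list, by construction with fewer genes. Over all genes, a floor raised to the 75th percentile left 75 genes past 2-fold upward and 119 downward. A threshold of 1.5-fold gave 725 and 1042, and one of 3-fold gave 31 and 57, in each case by construction. Of the other named genes 333 values moved by less than 0.41 and 9 by more. Pde4dip, Akap12, Pakap, Akap9, Nr4a3, Crem and Tnnt3 moved when all probe sets of a gene were averaged. S100b and Ypel4 moved when intensities under 32 were raised to 32. The medians with no values raised moved by construction, since intensities under 16 were then kept as deposited. Low intensity limits the phosphodiesterase probe sets. Of the 11, only 6 reached the floor, and 3 of the others were under 16 on both arrays. No paired analysis was possible because there was only 1 array for each treatment.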

Other observations

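Genes beside Pde4c on chromosome 16 of the GRCr8 assembly were looked up after its value was seen, 3 measured genes on each side. The nearest, Rab3a, a GTPase of vesicle release, read 415 after OSU-HDAC42 and 263 after vehicle, a log2 difference of 0.66. Of the others, Mpv17l2 differed by -0.37, Ifi30 by -0.023, Jund by -0.075 and Lsm4 by -0.13, and Iqcn was under 16 on both arrays. None of those above the floor reached 2-fold, and the reading of Iqcn cannot say whether it differed.

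Pde3b was 1 of 963 non-control probe sets with exactly the same deposited value on both arrays. Probe sets annotated to several genes were left out of all counts. Those naming Pde11a and Cyct together were below the floor, and the brightest of them read 17.6 after OSU-HDAC42 and 33.0 after vehicle. The pair naming Gnai1 and Gnai3 differed by 0.046 and 0.67.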
